A study of Mus musculus with 20 samples.

Results

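The 10 genes described here belong to the integrated stress response and to the neighbouring response of the endoplasmic reticulum (ER) to unfolded protein. They were chosen by symbol: Atf4, Ddit3, Trib3, Sesn2, Chac1, Asns, Psat1, Phgdh, Hspa5 and Xbp1. By the GENCODE M21 annotation these 10 symbols take 11 of the 55471 gene identifiers of the gene count table, because Ddit3 has an additional, nested gene model. Of these, 10 identifiers, 1 per gene, had enough counts to be tested, and the nested Ddit3 model had 0 counts in all 20 libraries. How reads shared by the pair of Ddit3 models were assigned is not given in the sources used here.

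The study sequenced total RNA of SIMS cells, an epithelial cell line of the mouse salivary gland, grown in DMEM with 10% fetal bovine serum. It asked which transcripts accumulate without ZCCHC8, a subunit of the complex that hands short-lived nuclear RNAs to the RNA exosome. The 5 groups held 4 libraries each: unedited wild-type cells, Btbd7 KO cells and Zcchc8 KO clones 1, 2 and 3. The knockouts were made with CRISPR/Cas9, and the Btbd7 KO was the study's negative control for editing. Each Zcchc8 KO clone is a single line, the labels number no clones for the Btbd7 KO, and every comparison against wild type shared the same 4 wild-type libraries. Nothing in the labels says that the libraries of a group came from separate cultures, so p-values measure the spread between these libraries, which may be technical.

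The integrated stress response starts when a kinase phosphorylates the translation factor eIF2α, which lowers general protein synthesis and raises translation of the transcription factor ATF4. ATF4 then raises genes for amino acid synthesis, amino acid uptake and tRNA charging, and, under lasting stress, DDIT3 (CHOP), TRIB3 and CHAC1. PERK, a kinase of this kind, sits in the ER membrane, where the chaperone HSPA5 (BiP) and the transcription factor XBP1 belong to the unfolded protein response. Secretory epithelia such as the salivary gland load the ER heavily with protein, and these pathways are well known there.

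Sequence around the starts of the genes is shown for members whose upstream region was counted or whose start carries a known response element. In all, 3 motifs were searched on both strands in RefSeq windows of 300 bases, 250 before and 50 after the start (GRCm38.p6), which were found for all 10 genes. The C/EBP-ATF response element was written TGATGNAA, the ER stress response element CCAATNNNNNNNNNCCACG and the cyclic AMP response element TGACGTCA, and the matches found lie in 4 different genes, so none overlaps another. TGATGNAA was present in the windows of 3 of the 10 genes (Chac1, Trib3 and Asns) and in 3.97% of the 32851 windows of all genes. The ER stress element was present in 1 (Hspa5) and in 0.119% of all windows, and TGACGTCA in 0 of 10 and in 1.79% of all windows. A match describes the letters and is not a binding site shown by these data. The stretches of 30 bases around the elements of Hspa5 (chr2:34772020-34772049, plus strand, first motif base at -65 from the RefSeq start), Asns (chr6:7693214-7693243, minus strand, first motif base at -23) and Trib3 (chr2:152344028-152344057, minus strand, first motif base at 14) are given 5′ to 3′ on the gene's strand, with the motif in capitals. Counted from the outermost GENCODE start, the Hspa5 and Asns motifs begin at 55 and 22, inside the annotated gene, and the Trib3 motif at -14, in front of it. The Trib3 and Chac1 matches read on the opposite strand.
Hspa5: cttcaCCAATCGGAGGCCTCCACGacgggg
Asns: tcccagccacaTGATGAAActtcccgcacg
Trib3: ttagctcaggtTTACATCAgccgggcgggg
The next stretches lie directly before the outermost GENCODE start of 3 genes whose upstream transcripts were counted and rose, Chac1 (chr2:119350992-119351228), Hspa5 (chr2:34771840-34771969) and Atf4 (chr15:80254934-80255183), all on the plus strand. Capitals again mark the C/EBP-ATF element, whose first base in Chac1 lies at -193 from the RefSeq start.
Chac1: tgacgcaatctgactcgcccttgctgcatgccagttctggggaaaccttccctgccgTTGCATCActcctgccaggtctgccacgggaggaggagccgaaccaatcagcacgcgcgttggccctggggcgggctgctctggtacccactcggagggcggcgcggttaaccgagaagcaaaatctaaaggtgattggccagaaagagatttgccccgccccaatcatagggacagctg
Hspa5: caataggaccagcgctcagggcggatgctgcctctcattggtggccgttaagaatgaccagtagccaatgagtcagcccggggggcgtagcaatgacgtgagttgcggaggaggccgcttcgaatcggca
Atf4: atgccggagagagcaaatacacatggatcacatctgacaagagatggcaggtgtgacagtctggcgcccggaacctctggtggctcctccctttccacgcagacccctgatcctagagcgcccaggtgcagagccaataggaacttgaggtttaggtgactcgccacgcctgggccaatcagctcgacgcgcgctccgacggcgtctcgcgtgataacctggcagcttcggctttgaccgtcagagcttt

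Gene counts summed to between 6833258 and 17771804 per library. All 10 epithelial markers checked (keratins, Cdh1, Epcam and others) were present in every library, at a summed counts-per-million (CPM) level of 3730 to 5466 in wild type, 4712 to 4861 in the Btbd7 KO and 3496 to 4368 in the Zcchc8 KO clones. Of these, 4 were called lower in the mean of the clones and 0 higher (median log2 fold change -0.04). Single clones went both ways, with 5 lower and 1 higher in clone 1 (Cldn4) and 4 lower and 1 higher in clone 2 (Krt19). Clone 3 had 4 lower and 2 higher (Cdh1 and Cldn7). Krt7 averaged 1136 CPM in wild type and 733, 801 and 734 in clones 1 to 3, and Krt18 averaged 970 and then 729, 700 and 684, each called lower in every clone. Aqp5, which made up nearly all of the acinar sum, was lower as well, at 178 CPM in wild type, 111 in the Btbd7 KO and 147, 137 and 117 in the clones. Of the leukocyte list, Cd68 was tested, at 5.55 CPM in wild type and 11.2, 9.31 and 5.54 in clones 1 to 3, called higher in clones 1 and 2, and Adgre1 had 0 counts throughout. Fibroblast markers summed to 11.4 to 18.5 CPM in wild type and 10.2 to 28.2 in the clones, with Col1a1 higher and Col3a1 lower in the clone mean (0.67 and -3.85) and Lum at 0. Endothelial markers summed to at most 1.40 CPM. The part of these shifts in the results was not tested. Wild type held 65.1 ± 2.92 CPM of Zcchc8 RNA (SD, n = 4), clone 1 held 60.3 ± 4.28, clone 2 held 23.3 ± 1.35 and clone 3 held 54.6 ± 4.84. It was called lower in clones 2 and 3 and not in clone 1 (log2 fold change -0.11, adjusted p = 0.291), and an edit that stops the protein need not change RNA counted over the whole gene. Wild-type replicate 1 stood apart, with 14245 genes detected, while replicates 2 to 4 had 17442 to 18791. Calls of the 10 genes that changed without it are named beside the results. Where a group lies wholly apart from wild type, the share of all genes or upstream regions that do so is not given. How common such separation is can therefore not be judged from the values given. CPM here takes as its base the library size after TMM scaling, differences are log2 fold changes ± standard error, and a gene was called when edgeR's Benjamini-Hochberg adjusted p over all 15297 genes tested was under 0.05.

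Per length of merged annotated exons, Atf4 RNA was the most abundant of the 10 in wild type, at 133 ± 34.9 RPKM. RPKM is CPM per kilobase of these exons, given with SD (n = 4). Hspa5 followed at 83.4 ± 7.28, Asns at 60.3 ± 6.27, Psat1 at 52.3 ± 8.24, Chac1 at 40.8 ± 9.78 and Phgdh at 38.9 ± 10.6. Trib3 (14.8 ± 2.94), Xbp1 (13.5 ± 0.717), Sesn2 (5.44 ± 1.62) and Ddit3 (3.80 ± 1.64) were lower. In this order Asns and Psat1, Psat1 and Chac1, Chac1 and Phgdh, Trib3 and Xbp1, and Sesn2 and Ddit3 lay within their summed SDs. The other steps were wider. Not divided by length, Hspa5 averaged 353 ± 30.8 CPM and Atf4 313 ± 82.4 CPM in wild type.

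RNA of 9 of the 10 genes was lower in the mean of the 3 Zcchc8 KO clones than in wild type, against a background of 19.9% of all tested genes called lower and 16.2% called higher. Among protein-coding genes alone, 25.4% were called lower. The 9 falls ranged from 18.2% for Xbp1 to 42.9% for Chac1, and Ddit3 was the exception (log2 fold change -0.05 ± 0.20, adjusted p = 0.885). The median log2 fold change of the 10 genes was -0.44, beside -0.01 over all tested genes. The count stayed at 9 without wild-type replicate 1, and it fell to 6 without wild-type replicate 2, when Trib3, Psat1 and Sesn2 were no longer called. When each cell line was a single replicate, 3 clones against the wild-type and Btbd7 KO lines, 1 of the 10 was called, Hspa5 (-0.52, adjusted p = 0.0230), against 6.30% of all genes in either direction. The other 8 falls kept their direction in that fit, from -0.38 for Trib3 to -0.86 for Asns (adjusted p = 0.0565 to 0.227). Fewer expressing cells and less RNA per cell cannot be told apart in such libraries.

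**Figure D1:**
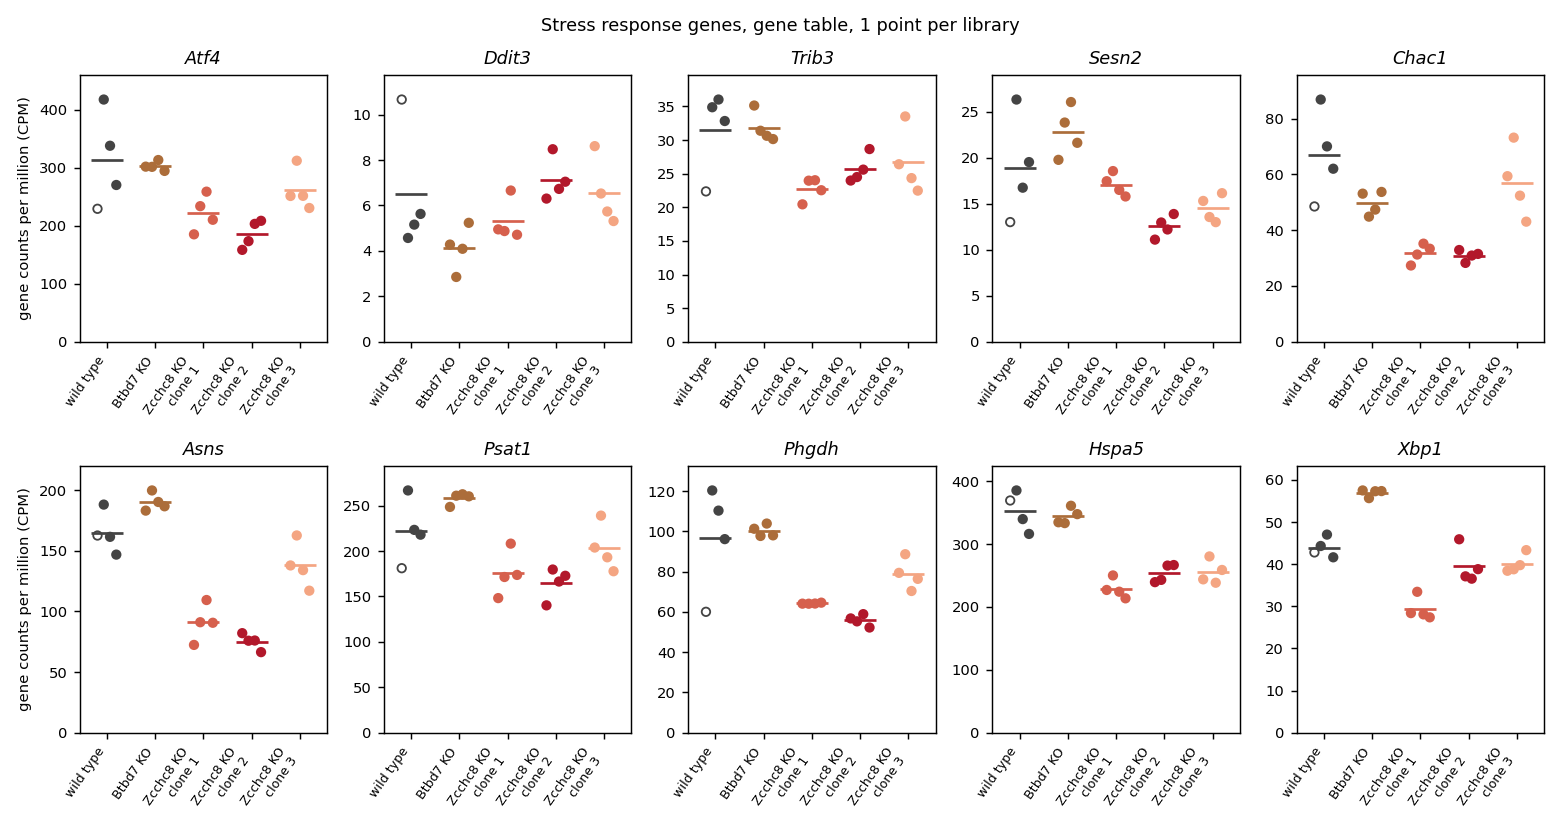
CPM of the 10 genes in each library of the 5 groups (points) with the group mean (line), each panel on its own axis from 0, and wild-type replicate 1 as an open point. Hspa5 lies lower in all 12 Zcchc8 KO libraries than in any wild-type library, while the Ddit3 values of all 12 lie within the wild-type range.

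The clones did not do this to the same degree. Clone 1 had 8 of the 10 lower (background 19.1%), clone 2 had 7 (background 16.2%) and clone 3 had 2 (background 15.3%), and Asns and Hspa5 were the genes called lower in each clone, which 5.82% of all tested genes were. Over the 10 genes, clones 1, 2 and 3 had median log2 fold changes of -0.54, -0.53 and -0.25. A joint test of any difference among the clones called 5 of the 10, Asns, Atf4, Chac1, Phgdh and Xbp1 (background 28.5%). The count in clone 2 was 8 without wild-type replicate 1, which added Trib3 (-0.40, adjusted p = 0.00322). The count in clone 3 rose to 7 without it, which added Atf4, Chac1, Phgdh, Sesn2 and Trib3, and was 1 without wild-type replicate 2 or 3 or clone 3 replicate 1, 3 or 4. Under other settings it moved between 1 and 4. The joint count was 3 without clone 3 replicate 2, the clone 3 library with the highest Atf4, Asns and Chac1.

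**Figure D2:**
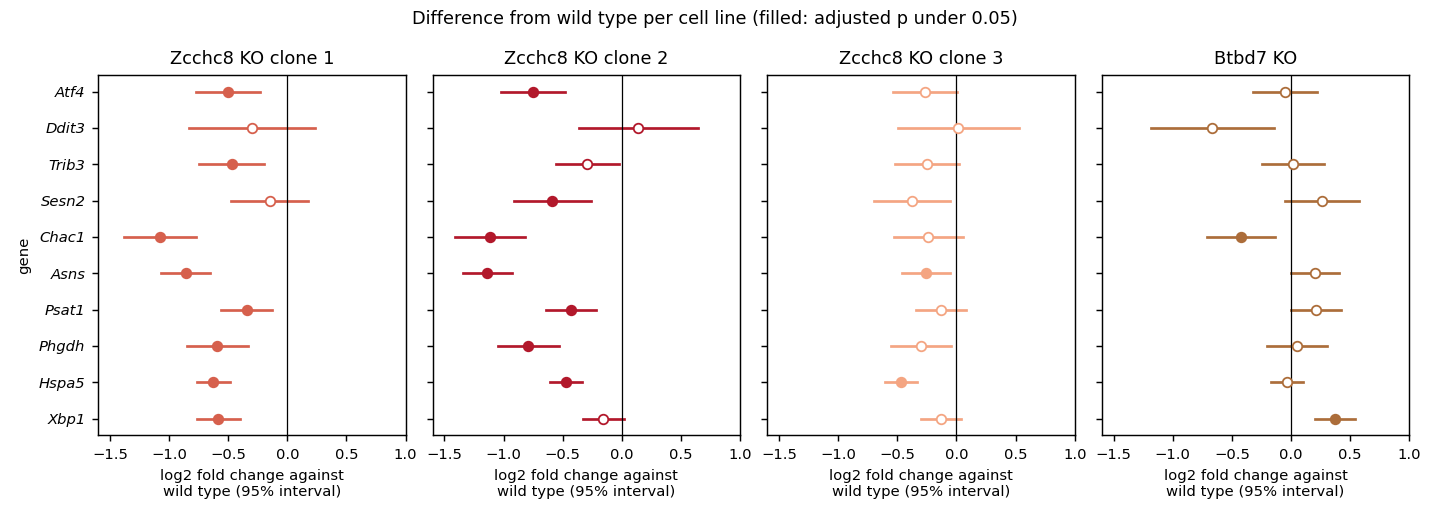
Log2 fold change of each gene against wild type (x axis) for the 3 Zcchc8 KO clones and the Btbd7 KO, with 95% intervals and filled points where the adjusted p was under 0.05. Chac1 and Asns reach about 1 log2 unit below wild type in clone 2 (-1.12 and -1.14), and the clone 3 intervals lie nearer to 0.

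Atf4 encodes the transcription factor at the centre of the response. Its RNA was at 229, 417, 338 and 270 CPM in wild-type replicates 1 to 4. It was at 185, 234, 259 and 210 CPM in clone 1, at 158, 173, 203 and 208 in clone 2 and at 251, 312, 251 and 230 in clone 3. All clone 2 libraries lay below all wild-type libraries, whereas the range of clone 1 took in wild-type replicate 1. The range of clone 3 took in wild-type replicate 4, and replicate 1 lay just below every clone 3 library. Atf4 fell by 0.50 ± 0.13 in clone 1 (log2 scale, adjusted p = 0.00421) and by 0.75 ± 0.13 in clone 2 (adjusted p = 8.2e-05), and its difference in clone 3 was -0.27 ± 0.13 (adjusted p = 0.132). Without wild-type replicate 1 the clone 3 value was -0.38 (adjusted p = 0.00264). Translation, by which Atf4 is chiefly controlled, was not measured.

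Ddit3 encodes CHOP, the factor that ATF4 raises under lasting stress, and it was the least abundant of the 10. Wild-type replicates 1 to 4 held 164, 79, 69 and 96 Ddit3 counts, or 10.7, 4.57, 5.16 and 5.63 CPM. Clone 1 held 4.95, 4.87, 6.66 and 4.71 CPM, clone 2 6.30, 8.48, 6.73 and 7.05, and clone 3 8.61, 6.53, 5.74 and 5.32. The high value of wild-type replicate 1 lay above every other library, all 12 clone libraries fell within the wild-type range, and the Btbd7 KO libraries lay below those of clones 2 and 3. Without that library the difference of the clone mean turned from -0.05 to 0.32 (adjusted p = 0.191), so these data set no direction for Ddit3 against wild type. The start of Ddit3 (chr10:127290774-127296288) overlaps Gm4189 on the opposite strand and its end overlaps Mars, and Gm20492 ends 1093 bases upstream on the same strand. Gm20492 had 0 to 4 counts in wild type and 7 to 46 in the clones (log2 fold change of the mean 3.81 ± 0.53, adjusted p = 4.0e-06), while Gm4189 did not pass the test (0.04 ± 0.46, adjusted p = 0.959).

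Trib3, Sesn2 and Chac1 are targets of ATF4 with restraining roles: the TRIB3 pseudokinase feeds back on ATF4 and CHOP, sestrin 2 curbs mTORC1 when leucine is short, and CHAC1 degrades glutathione. Chac1 RNA was at 48.5, 86.8, 70.1 and 62.0 CPM in wild-type replicates 1 to 4. It was at 27.3, 31.3, 35.2 and 33.4 CPM in clone 1, at 32.9, 28.3, 30.9 and 31.5 in clone 2 and at 59.4, 73.2, 52.4 and 43.1 in clone 3. Clones 1 and 2 therefore lay wholly below wild type at 47.5% and 46.1% of its level in the fit, and clone 3 lay among the wild-type libraries. Chac1 fell by 1.07 ± 0.15 in clone 1 (adjusted p = 3.2e-06) and by 1.12 ± 0.14 in clone 2 (adjusted p = 1.4e-06), and its difference in clone 3 was -0.24 ± 0.14 (adjusted p = 0.217), or -0.36 without wild-type replicate 1 (adjusted p = 0.0130). The clones differed for Chac1 (adjusted p = 2.4e-05).

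Trib3 and Sesn2 changed less. Trib3 ranged from 22.4 to 36.0 CPM in wild type, with replicate 1 lowest, from 20.4 to 24.0 in clone 1, from 24.0 to 28.7 in clone 2 and from 22.5 to 33.5 in clone 3. It was called lower in clone 1 alone (-0.47 ± 0.13, adjusted p = 0.00770) and in the mean of the clones (-0.34 ± 0.10, adjusted p = 0.0130). Sesn2 was at 13.0, 26.3, 16.7 and 19.5 CPM in the wild-type libraries, a spread as wide as any difference between groups. It fell by 0.59 ± 0.16 in clone 2 (adjusted p = 0.00526), while its values in clones 1 and 3 were -0.15 ± 0.16 and -0.38 ± 0.16 (adjusted p = 0.503 and 0.0742). Without wild-type replicate 1 the clone 3 values were -0.51 for Sesn2 (adjusted p = 0.00338) and -0.38 for Trib3 (adjusted p = 0.00612). The Trib3 call for the clone mean was lost without wild-type replicate 2, 3 or 4 (adjusted p up to 0.0821), and the Sesn2 call without replicate 2 or 4 (adjusted p up to 0.287). The gene Gm12981, annotated in the antisense class, lies within Sesn2 on the same strand and had at most 29 counts in a wild-type library.

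Asns, Psat1 and Phgdh encode enzymes of amino acid synthesis: ASNS makes asparagine, and PHGDH and PSAT1 catalyse the opening steps of serine synthesis. Asns was at 163, 188, 162 and 147 CPM in wild-type replicates 1 to 4. It was at 72.4, 91.1, 109 and 90.7 CPM in clone 1, at 82.1, 75.9, 76.0 and 66.5 in clone 2 and at 138, 163, 134 and 117 in clone 3. Clones 1 and 2 lay far below every wild-type library, and clone 3 overlapped them in 1 library. Asns fell by 0.86 ± 0.10 in clone 1 (adjusted p = 3.6e-07), by 1.14 ± 0.10 in clone 2 (adjusted p = 4.0e-09) and by 0.26 ± 0.10 in clone 3, where the adjusted p of 0.0498 lay at the threshold. The clones differed for Asns (adjusted p = 5.7e-07), the smallest adjusted p of that test among the 10 genes.

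Phgdh was at 60.0, 120, 110 and 96.1 CPM in wild-type replicates 1 to 4, so replicate 1 sat near the clones. It was at 64.0 to 64.6 CPM in clone 1, 52.2 to 58.9 in clone 2 and 70.4 to 88.6 in clone 3. Phgdh fell by 0.59 ± 0.13 in clone 1 (adjusted p = 0.000683) and by 0.79 ± 0.13 in clone 2 (adjusted p = 2.3e-05), and its clone 3 difference was -0.30 ± 0.12 (adjusted p = 0.0732). Without wild-type replicate 1 the clone 3 value became -0.46 (adjusted p = 3.7e-06), and all 12 Zcchc8 KO libraries then lay below the remaining wild-type libraries. Psat1 ranged from 181 to 267 CPM in wild type, 148 to 208 in clone 1, 140 to 180 in clone 2 and 178 to 239 in clone 3. It fell by 0.34 ± 0.10 in clone 1 (adjusted p = 0.0118) and by 0.43 ± 0.10 in clone 2 (adjusted p = 0.00224), with -0.13 ± 0.10 in clone 3 (adjusted p = 0.377). The processed pseudogene Gm3329 lies on the opposite strand within Psat1.

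Hspa5 encodes BiP, the most abundant chaperone of the ER lumen and the brake on its stress sensors. It was at 369, 385, 340 and 316 CPM in wild-type replicates 1 to 4. It was at 227, 250, 224 and 214 CPM in clone 1, at 239, 243, 266 and 267 in clone 2 and at 244, 280, 239 and 259 in clone 3. All 12 Zcchc8 KO libraries lay below all wild-type libraries and below all Btbd7 KO libraries, which ranged from 333 to 361 CPM. Hspa5 fell by 0.62 ± 0.07 in clone 1 (adjusted p = 7.2e-08), by 0.47 ± 0.07 in clone 2 (adjusted p = 4.3e-06) and by 0.47 ± 0.07 in clone 3 (adjusted p = 6.8e-06). The joint test did not separate the clones for Hspa5 (adjusted p = 0.124). Its clone-mean value without wild-type replicate 1 was -0.48 (adjusted p = 8.8e-10).

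Xbp1 encodes the transcription factor whose RNA is spliced by IRE1 when unfolded protein builds up, and counts per gene do not separate its spliced form. It was at 42.8, 44.3, 47.0 and 41.6 CPM in wild-type replicates 1 to 4, a narrow range. It was at 28.4, 33.4, 28.1 and 27.4 CPM in clone 1, at 45.9, 37.1, 36.6 and 38.8 in clone 2 and at 38.4, 38.8, 39.8 and 43.3 in clone 3. Clone 1 stood clear below wild type, and 1 library each of clones 2 and 3 reached into its range. Xbp1 fell by 0.58 ± 0.09 in clone 1 (adjusted p = 9.4e-06), and the differences in clones 2 and 3 were -0.16 ± 0.08 and -0.13 ± 0.08 (adjusted p = 0.155 and 0.260). The clones differed (adjusted p = 0.000339).

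In the Btbd7 KO, 1 of the 10 genes was lower, Chac1 (background 8.00%), and 1 was higher, Xbp1 (background 7.73%). Chac1 was at 53.1, 44.9, 47.4 and 53.7 CPM in Btbd7 KO replicates 1 to 4, which overlaps wild-type replicate 1 only. Its log2 fold change was -0.43 ± 0.14 (adjusted p = 0.0381). Xbp1 was at 57.5, 55.7, 57.3 and 57.4 CPM, above every wild-type library in 4 of 4 libraries (0.37 ± 0.08, adjusted p = 0.00202). Ddit3 read 4.28, 2.85, 4.09 and 5.24 CPM in the Btbd7 KO (-0.66 ± 0.25, adjusted p = 0.0784). Asns and Psat1 stood at 1.15 and 1.16 times wild type with adjusted p = 0.165 for each. When a single library was left out, the Btbd7 KO count ran from 1 to 4, the 4 without wild-type replicate 2. It was 1 without each Btbd7 KO library in turn and without wild-type replicate 3 or 4. Taken against the Btbd7 KO in place of wild type, the clone mean was lower for the same 9 genes and higher for Ddit3 (0.62, adjusted p = 0.0251).

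Genes around these 10 in the pathway, from lists that leave the 10 out, showed where RNA fell with them. The values are for the mean of the clones. They are to be read against the same 19.9% background and the median of -0.01 over all tested genes. Among protein-coding genes alone, 25.4% were called lower. The lists were not counted in the fit with each cell line as a single replicate. The list of aminoacyl-tRNA synthetases, which charge tRNAs with amino acids, also holds Xpot, which exports tRNAs from the nucleus. Of this list, 13 of 13 were lower (median -0.51), with Xpot the least (-0.20 ± 0.07, adjusted p = 0.0364). Iars was at 547 ± 88.1 CPM in wild type and 283 ± 21.3, 311 ± 14.5 and 365 ± 8.77 in clones 1 to 3. It fell by 0.79 ± 0.06 (adjusted p = 1.5e-10), and Tars by 0.74 ± 0.06, Aars by 0.58 ± 0.06 and Wars by 0.56 ± 0.06, each called in every clone. Amino acid and one-carbon enzymes were lower in 10 of 11 tested (median -0.45). In that list Aldh18a1 and Pycr1, both of proline synthesis, were called lower in each clone (-0.67 ± 0.06 and -0.60 ± 0.13).

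Amino acid transporters were lower in 6 of 9 tested (median -0.38). Slc1a4, a carrier of alanine and serine, fell by 1.12 ± 0.12 from 32.8 ± 4.59 CPM in wild type to 10.1 ± 2.91 in clone 1, 14.7 ± 3.07 in clone 2 and 23.5 ± 3.54 in clone 3. Slc3a2, the heavy chain of several amino acid exchangers, fell by 0.51 ± 0.05. The signalling end moved less. Of the 15 eIF2 kinases, eIF2 subunits and phosphatases, 6 were lower (median -0.14), among them Ppp1r15b, a regulatory subunit of the eIF2α phosphatase (-0.27 ± 0.05). Of 14 ATF4 partners and stress regulators tested, 4 were lower and 2 higher (median 0.02). The number lower thus lay near the 25.4% of protein-coding genes called lower. Fgf21, a hormone that ATF4 can raise, was lower (-1.34 ± 0.34) at 3.57 ± 0.568 CPM in wild type, and was lower in the Btbd7 KO too (-1.84 ± 0.46, adjusted p = 0.00616). Sqstm1, the autophagy receptor p62, was higher (0.27 ± 0.06).

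The ER lists split in the same comparison. Of 17 ER chaperones and folding enzymes, 6 were lower and 1 higher (median -0.05), so most did not pass with Hspa5. Hsp90b1, the ER form of HSP90, fell by 0.36 ± 0.04 and was lower in the Btbd7 KO as well (-0.21 ± 0.05, adjusted p = 0.00935). Of 16 genes of ER-associated degradation and stress sensing, 7 were lower (median -0.11), with Sec61b, a subunit of the translocon, at -0.58 ± 0.10 and Vcp, the segregase p97, at -0.40 ± 0.06. In clone 3 the synthetase list was lower in 4 of 13 and the amino acid enzymes in 2 of 11, against 15.3% of all tested genes. The amino acid enzymes there thus lay near that share. In clone 2 the counts were 13 and 9, against 16.2% of all tested genes. In the Btbd7 KO the median of the synthetase list was 0.08, beside 0.02 over all tested genes. Without wild-type replicate 1 the number called lower in the mean of the clones was 11 of the amino acid enzymes, 3 of the ATF4 partners and 5 of the ER chaperones, and was as given for the other 4 lists. The number of ATF4 partners called higher was then 4.

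**Figure D3:**
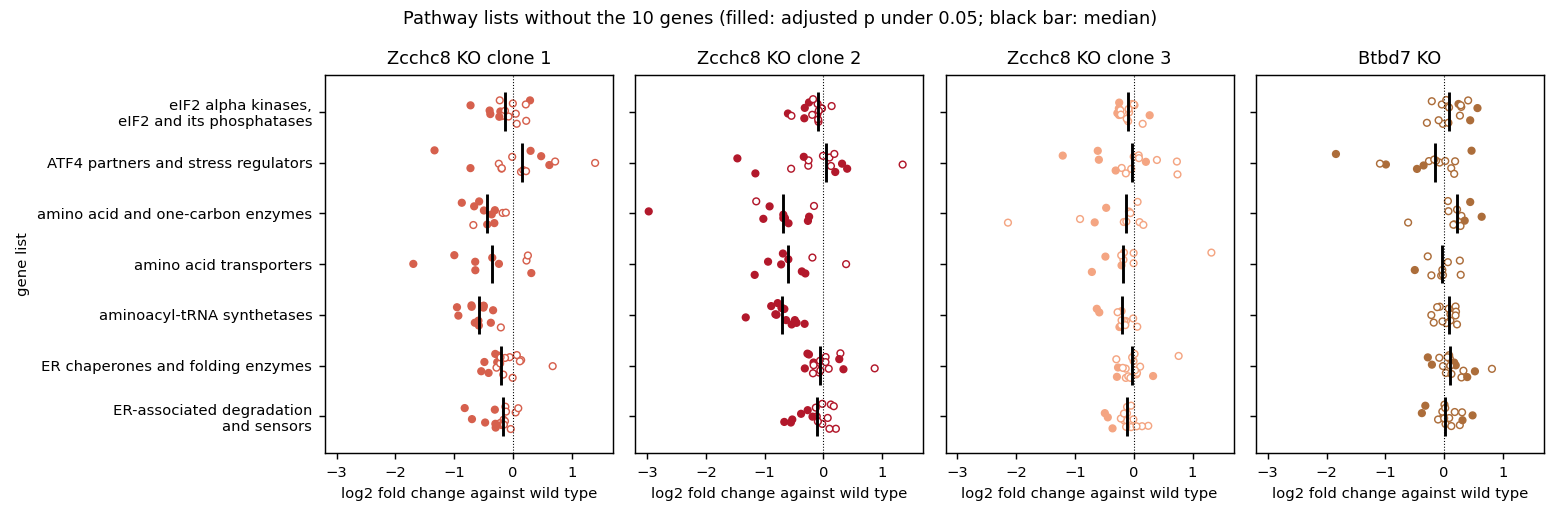
Log2 fold change against wild type (x axis) of every tested gene of 7 pathway lists, 1 panel for each Zcchc8 KO clone and the Btbd7 KO, filled where the adjusted p was under 0.05, with a bar at the list median. The genes of the synthetase list lie left of 0 in clones 1 and 2 (medians -0.58 and -0.71), and the ER chaperones spread around it.

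Atf4 moved with several members from library to library. Over the 20 libraries, which share clone, depth and the scaling, the correlation with Atf4 of log2(CPM + 0.5) was 0.91 for Psat1, 0.90 for Phgdh, 0.86 for Asns, 0.85 for Chac1 and 0.79 for Trib3. It was 0.72 for Sesn2, 0.71 for Hspa5, 0.49 for Xbp1 and -0.44 for Ddit3. After group means were taken out it was 0.87 for Psat1, 0.80 for Trib3, 0.79 for Chac1 and 0.71 for Phgdh. It was then 0.55 for Asns, 0.54 for Sesn2, 0.47 for Hspa5, -0.05 for Xbp1 and -0.34 for Ddit3. Wild-type replicate 1, which stood apart, is part of these values. Wild-type replicate 2 and clone 3 replicate 2 each had the highest Atf4 of their line. Both lay above their group means in Psat1, Trib3, Chac1 and Phgdh too. Not every line did so. Clone 2 replicate 4 had the highest Atf4 of its clone (208 CPM) and the lowest Phgdh of that clone (52.2 CPM). Btbd7 KO replicate 3 had the highest Atf4 of its line (313 CPM), with Trib3 and Chac1 below their group means. Xbp1 did not move with Atf4 within groups. These correlations are a description without a test. Among 10436 genes of at least 5 CPM, those nearest to Atf4 were Mthfd2, a mitochondrial one-carbon enzyme (0.95), Cars, the cysteinyl-tRNA synthetase (0.94), and Hspa9, a mitochondrial chaperone (0.92). Psat1 stood at rank 6 and Phgdh at rank 14 on that scale, and Ddit3 at rank 9328. Those nearest to Hspa5 were Epha4 (0.95), Psmd7 (0.94) and Mtap (0.94), whose correlation after removal of group means was 0.70, 0.56 and 0.47. For Ddit3 they were Dscc1 (0.86), Zfp644 (0.83) and Gskip (0.83).

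**Figure D4:**
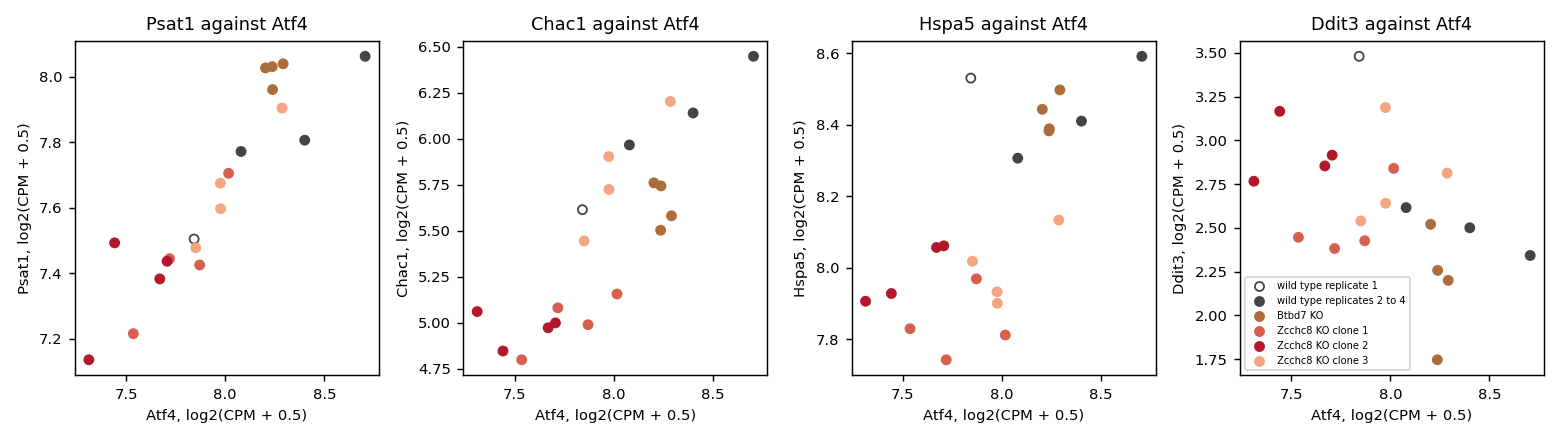
Level of Psat1, Chac1, Hspa5 and Ddit3 (y axis) against Atf4 (x axis), both as log2(CPM + 0.5), 1 point per library over all 20 libraries, coloured by group. Psat1 follows Atf4 across and within groups (0.91 and 0.87), and Ddit3 does not (-0.44 and -0.34).

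Upstream of the same genes, the study counted promoter upstream transcripts (PROMPTs), short-lived RNAs that start near a promoter and run away from the gene, mostly on the other strand. The PROMPT table used here holds 19 libraries, without wild-type replicate 1, and the limits and strand of its regions are not given in the sources used here. How far the printed upstream stretches lie inside them is therefore not known. Of the 11 regions of the 10 genes, 6 had enough counts to be tested, those of Hspa5, Chac1, Atf4, Trib3, Xbp1 and the nested Ddit3 model. The regions of Asns, Psat1, Phgdh and Sesn2 held at most 8 counts in any library, and that of the main Ddit3 model held 0 in all. The outermost GENCODE start of Psat1 (chr19:15947337) lies outside its RefSeq windows (chr19:15925010-15925309 and chr19:15924573-15924872). Which start its region follows is not known. Values are CPM on the library sizes and scaling of the gene table.

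The regions of Hspa5, Chac1 and Atf4 also passed the filter on low counts in the wild-type and Btbd7 KO libraries alone. Those of Trib3, Xbp1 and nested Ddit3 passed only through the clones, where they are high, so that a higher value there was favoured by the filter and their calls are no support. The first 3 were called higher in the mean of the Zcchc8 KO clones, against 39.9% of all 17655 tested regions and 29.9% of the 12940 that pass in the control libraries alone. Over all tested regions the median log2 fold change was 0.45, so the whole table was shifted, and over those 12940 it was 0.21. The Hspa5 and Chac1 regions were called higher in each clone, as 28.9% of all regions were, and the Atf4 region in clones 1 and 2. The shares of all regions called higher in clones 1 to 3 were 39.3%, 36.0% and 36.7%. In the Btbd7 KO edgeR called 0 of the 6 (background 1.35% higher and 1.68% lower), 0 at an unadjusted p under 0.05, and DESeq2 called 0. With each cell line as a single replicate, the Hspa5, Chac1 and Atf4 regions were called higher (adjusted p up to 0.0194), against 36.0% of all regions called in either direction.

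The Hspa5 region read 4.40, 3.14 and 2.87 CPM in wild-type replicates 2 to 4, from 76, 42 and 49 counts. It read 23.4, 24.1, 31.0 and 23.2 CPM in clone 1, 14.5, 13.3, 12.8 and 10.3 in clone 2 and 17.2, 14.6, 17.3 and 14.1 in clone 3. No clone library came near the wild-type or the Btbd7 KO libraries, which read 1.94 to 3.85 CPM. The region rose by 2.88 ± 0.19 in clone 1 (adjusted p = 3.3e-20), 1.88 ± 0.19 in clone 2 (adjusted p = 1.1e-12) and 2.18 ± 0.19 in clone 3 (adjusted p = 4.6e-15), and the clones differed (adjusted p = 5.0e-06). Against the Hspa5 gene itself, which fell, the region made 9.09 to 11.4 counts per 1000 gene counts in wild type. It made 96.4 to 138 in clone 1, 38.6 to 60.7 in clone 2 and 51.9 to 72.7 in clone 3.

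The Chac1 region read 0.98, 0.37 and 1.11 CPM in wild-type replicates 2 to 4, from 17, 5 and 19 counts. It read 5.08, 3.93, 6.08 and 5.73 CPM in clone 1, 1.92, 1.71, 2.11 and 3.04 in clone 2 and 3.42, 2.89, 3.95 and 2.79 in clone 3. Every clone library lay above every wild-type library, including those of clone 3, where the Chac1 gene did not pass its test. The region rose by 2.63 ± 0.38, 1.41 ± 0.38 and 1.94 ± 0.38 in clones 1 to 3 (adjusted p = 2.9e-08, 0.00201 and 2.3e-05), and the clones differed (adjusted p = 0.0164). Chac1 region counts per 1000 gene counts ran from 5.34 to 18.0 in wild type and from 39.5 to 186 across the clones.

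The Atf4 region was already well covered in wild type and rose least. It read 15.4, 17.1 and 18.5 CPM in wild-type replicates 2 to 4, from 266, 229 and 315 counts. It ranged from 19.8 to 28.9 CPM in clone 1, 20.3 to 27.5 in clone 2 and 19.96 to 23.3 in clone 3, all above wild type. Its rise in the clone mean was 0.47 ± 0.12 (adjusted p = 0.000606), as large as the shift of the whole table, and scaled within the PROMPT table it was 0.07 (adjusted p = 0.626). In clone 3 the value on the gene scaling was 0.32 ± 0.14 (adjusted p = 0.0525) and turned to -0.05 on the PROMPT table's own scaling. Mief1 ends 1813 bases upstream of Atf4 on the same strand, and the part its transcripts have in the Atf4 region was not tested.

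The other 3 regions were sparse. The Trib3 region held 2 counts over the 3 wild-type libraries and 77 over the 12 clone libraries, a ratio of 14.4 per library size with an exact 95% counting interval of 3.85 to 121. Clone 3 replicate 2 gave 18 of its 28 counts in that clone. The Xbp1 region held 3 and 92 counts, a ratio of 11.5 (3.80 to 56.6), and 12 in the Btbd7 KO, a ratio of 3.70 (0.999 to 20.4). The region of the nested Ddit3 model held 8 and 96 counts, a ratio of 4.48 (2.19 to 10.7), with 6 in the Btbd7 KO. These intervals cover counting error only. In the fit across libraries the clone mean was higher for Trib3 by 3.63 ± 1.1, for Xbp1 by 3.25 ± 1.03 and for nested Ddit3 by 2.12 ± 0.76 (adjusted p = 0.00502, 0.00761 and 0.0184). The Ddit3 call was lost without wild-type replicate 2 or 4 (adjusted p = 0.111 and 0.0768), and the Xbp1 call with the Btbd7 KO as control (1.33, adjusted p = 0.147). The Trib3 region did not pass the filter when scaled within the PROMPT table, which left 4 of 5 tested regions higher. Of these 4, the calls of Xbp1 and nested Ddit3 are again no support.

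**Figure D5:**
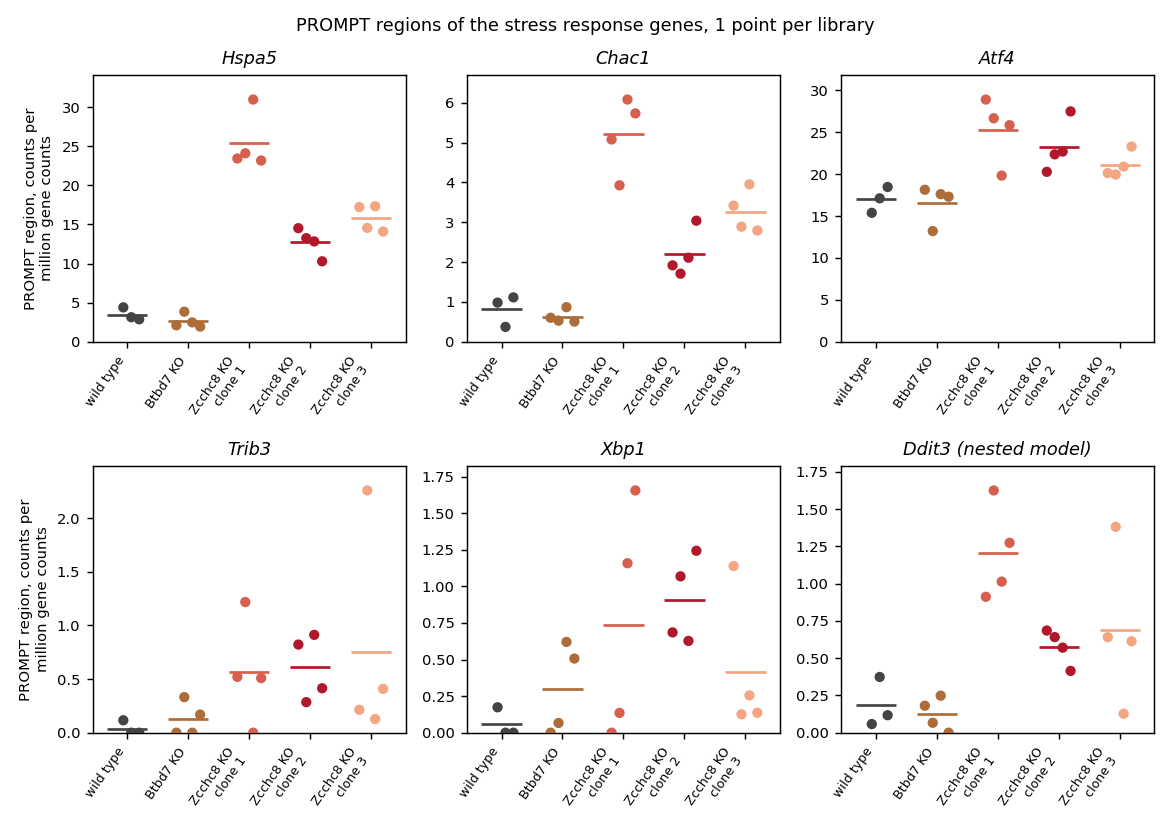
CPM of the PROMPT regions on the gene table's scaling (y axis, from 0 in each panel) of the 6 tested regions in each of 19 libraries (points) with group means (lines). The Hspa5 and Chac1 regions separate all clone libraries from wild type and Btbd7 KO. The share of all regions that do so is not given. By a different measure, 28.9% of all tested regions were called higher in each clone. The Trib3, Xbp1 and nested Ddit3 regions rest on few counts.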

How the data were processed

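Total RNA from a TRIzol and column extraction was made into libraries with the Illumina TruSeq Stranded Total RNA kit, per the labels' protocols. Reads were handled with FastQC and STAR 2.7.3a, per the submitters' processing notes. The counter, genome build, strand setting and PROMPT region limits are not given in the sources used here. The authors deposited raw counts per gene (20 libraries, 6833258 to 17771804 counts) and per PROMPT region (19 libraries). Groups came from the labels. Of the 55471 versioned gene identifiers, 54573 matched GENCODE M21 and 55230 did so without version, and gene coordinates and exon lengths for RPKM were taken from that annotation (GRCm38). Upstream sequence was taken from RefSeq.

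Counts were fitted with edgeR 4.0.16 (glmQLFit, R 4.3.3) in a single model over 5 groups, with TMM factors from all genes, the filterByExpr filter and Benjamini-Hochberg adjustment over each whole table. PROMPT counts used the gene table's library sizes and factors. Standard errors were taken as the size of the log2 fold change over the square root of F. The scripts were tested on simulated data. Alternatives were DESeq2 1.42.0, other filters and scalings, a replicate block, other controls and leaving out each library. Named genes were all 10 members, of each pathway list up to 4 genes called in the same direction in each clone with the largest change, and the 3 genes most correlated with Atf4, Ddit3 and Hspa5. The members, lists and tests were chosen with earlier results of these data known, and scaling with TMM from filtered genes was added after the data were seen.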

Additional observations from a re-analysis of the deposited data

Results flagged for a closer look

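The 3 Zcchc8 KO clones differed from each other, by the joint test, for the gene counts of Asns (adjusted p = 5.7e-07), Chac1 (adjusted p = 2.4e-05), Xbp1 (adjusted p = 0.000339), Phgdh (adjusted p = 0.0115) and Atf4 (adjusted p = 0.0192). They differed too for the PROMPT regions of Hspa5 (adjusted p = 5.0e-06) and Chac1 (adjusted p = 0.0164). Clone 3 held the smallest gene-level falls of Asns, Chac1, Phgdh and Atf4, while its Hspa5 and Chac1 regions rose by more than those of clone 2.

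In 9 of 74 groups of 4 libraries a single library lay far from the other 3 by Dixon's criterion, which flags about 1 in 20 groups by chance. In the gene table these were Ddit3 in clone 1 replicate 3 (6.66 CPM, the others at most 4.95), Xbp1 in clone 1 replicate 2 (33.4 CPM, the others at most 28.4) and Phgdh in clone 1 replicate 4 (64.6 CPM, within 0.6 of the lowest). The Btbd7 KO gave Psat1 in replicate 1 (249 CPM) and Xbp1 in replicate 2 (55.7 CPM), both lowest. Among PROMPT regions they were Hspa5 in clone 1 replicate 3 (31.0 CPM), Trib3 in clone 3 replicate 2 (2.26 CPM), Xbp1 in clone 3 replicate 1 (1.14 CPM) and Atf4 in Btbd7 KO replicate 2 (13.2 CPM). The Trib3 value came from 18 counts and the Xbp1 value from 16.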

How the results depend on the processing

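Asns, Chac1, Phgdh, Hspa5, Atf4 and Xbp1 were called lower in the clone mean under every alternative run except the one with each cell line as a single replicate, which called 1 gene (Hspa5). Of the 10 genes, clone 3 (2 called) had 1 with DESeq2, with a mean of at least 10 counts, with no TMM, with TMM from filtered genes and with only the groups compared, and 4 with no filter, and 1 to 7 when a library was left out. Clone 1 (8 called) had 5 with only the groups compared, the Btbd7 KO (2) had 1, and the joint test (5) had 8. Leaving out a library gave 1 to 4 for the Btbd7 KO, 3 to 6 for the joint test and 6 to 9 for the clone mean. The PROMPT count of 6 includes the 3 sparse regions, whose calls are no support because they passed the filter only through the clones. It became 3 with a mean of at least 10 counts, because those 3 regions were then not tested.

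Replicate numbers did not pair the libraries: 2 of 16 same-numbered pairs correlated above 0.1 (-0.06 to 0.15), and 2 of 16 edited libraries correlated best with the wild-type library of their number. A replicate block gave 1 for the Btbd7 KO count and moved no other count of members by over 1.5 times.

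Directions turned only for differences that had not been called, of which the nested Ddit3 region in the Btbd7 KO was the largest (-0.52). For Ddit3 the clone mean was 0.033 with no TMM, 0.62 with the Btbd7 KO as control and 0.26 with each line as a replicate. With a library left out, Ddit3 ran from -0.19 to 0.32 in the clone mean, -0.44 to 0.068 in clone 1 and -0.15 to 0.37 in clone 3, and Sesn2 from -0.27 to 0.054 in clone 1. In the Btbd7 KO the ranges were -0.17 to 0.12 for Atf4, -0.11 to 0.085 for Trib3, -0.11 to 0.17 for Phgdh and -0.076 to 0.0096 for Hspa5, and -0.098 to 0.068 for the Atf4 region and -0.94 to 0.39 for the nested Ddit3 region. Scaled within the PROMPT table, the Atf4 region was -0.050 in clone 3 and 0.0079 in the Btbd7 KO. The causes were not tested. Ddit3 (33 to 164 counts) and the 3 sparse regions rest on few counts.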
